A study of Rattus norvegicus with 12 samples.

Results

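Long non-coding RNA (lncRNA) genes make transcripts that are processed like messenger RNA but are not annotated as coding for a protein. The genes described here are the rows of the deposited rat table with class lncRNA and at least 10 reads in at least 3 of the 12 libraries. There were 186 such genes among 2465 lncRNA rows and 30452 genes in all. They were selected on measured reads, the same values that the comparisons use: 12 of the 186 had exactly 10 reads in their third-highest library, and 17 lncRNA rows just outside had 9 reads there. A further 1052 lncRNA rows had no read in any library.

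The 12 libraries were made from rat cornea, 3 each from the groups SF/HA-HEP-PAM, SF/HA, Alkali-burned and Control, in a study of a detachable patch made from silk for the surface of the eye. SF/HA-HEP-PAM and SF/HA are patch groups and Alkali-burned is the injury group. What SF, HA, HEP and PAM stand for is not given in the sources used here, nor are a strain, an age or a time after injury, nor whether a cornea under either patch had been burned. Whether replicates are separate animals is not given either, so a p-value covers the spread among these libraries alone, and that spread may be technical.

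LncRNA genes are known for low levels and for strong dependence on cell type, and in a tissue such as the cornea they are read from epithelium, stroma, endothelium and entering leukocytes together. Many sit beside a protein-coding gene. A divergent pair has starts near each other and is read in opposite directions. A tail-to-tail pair has ends that face each other on opposite strands. A gene that lies downstream on the same strand begins past the end of the coding gene. Others carry small nucleolar RNAs (snoRNAs), guides for the chemical modification of ribosomal RNA, or microRNAs inside their introns.

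Reads per library ranged from 1245606 to 2117399 in SF/HA-HEP-PAM, 499061 to 957696 in SF/HA, 1173159 to 1265298 in Alkali-burned and 486264 to 1015788 in Control, so the SF/HA-HEP-PAM libraries were the deepest on the whole. All 8 measured markers of corneal epithelium and all 8 of stroma had at least 10 reads in 3 libraries, and 0 of the 2 measured T-cell markers did. Summed markers of macrophages and neutrophils ran from 2524 to 20270 RPM (reads scaled to a library of 1000000 reads) in SF/HA-HEP-PAM, 2089 to 18044 in SF/HA, 1908 to 7168 in Alkali-burned and 519 to 564 in Control. Summed stromal markers ran from 12319 to 21576 RPM in SF/HA-HEP-PAM, 35014 to 37696 in SF/HA, 27372 to 35746 in Alkali-burned and 33183 to 85838 in Control. Summed lens markers, of which 2 of 4 passed the read minimum and Crybb2 was at 0 in every library, ran from 30.7 to 42.5 RPM in SF/HA-HEP-PAM, 6.01 to 12.5 in SF/HA, 5.75 to 8.52 in Alkali-burned and 6.17 to 6.89 in Control. Mitochondrial rRNA took 1.32% to 1.84% of reads in SF/HA-HEP-PAM, 2.98% to 3.89% in SF/HA, 2.51% to 2.87% in Alkali-burned and 3.62% to 5.49% in Control. Their part in the lncRNA results was not tested. In bulk tissue, fewer cells of a type and less RNA per cell cannot be told apart.

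The class column of the table and the names in it did not always match. Of the 186 genes, 167 carried only an Ensembl identifier and 19 a symbol. RefSeq lists 14 of these 19 symbols as protein coding, 1 as a lncRNA (Lnc134) and lacks the other 4. Among the 14 were Micos10, a subunit of the complex that shapes mitochondrial cristae, Rpl30, a protein of the large ribosomal subunit, and Hilpda, a lipid droplet protein. Samd8, Lsm6 and Rpl30, 3 of the symbols, also stood on another row of the table. Of 97 well-known lncRNA symbols looked up, such as H19, 3 were in the table, all with a class other than lncRNA, and 0 were among the 186.

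The genes were short and thinly read. The length column, which holds the genomic span with introns, had a median of 3059.5 bases over the 186 (range 853 to 253085), against 22742 over the protein-coding genes that passed the same read minimum. The median number of reads summed over 12 libraries was 163 (range 53 to 4513), against 316 for those protein-coding genes. Only 43 of the 186 had at least 10 reads in all 12 libraries. A set of 51 had them in exactly 3 libraries. For 41 genes every library with 10 reads was a SF/HA-HEP-PAM library, and for 2 an Alkali-burned one. These 43 entered the set through the group where they are high, so they had to differ in that direction. Where one of them is described below, that is said, and its difference in that direction is given without a p-value. A call of such a gene in that direction, kept or lost, describes the selected values and is not a test.

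By position within 5 kb of the nearest protein-coding gene, 51 genes lay tail to tail with it, 57 downstream on the same strand, 18 upstream on the same strand and 19 in divergent orientation (14 of these within 1000 bases), and 41 had none in reach. No lncRNA row overlapped a protein-coding row on either strand. Whether counting used the strand is not stated in the sources used here, so reads that run past the end of a neighbour cannot be told apart from reads of the lncRNA gene itself.

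The 10 genes with the highest mean RPM took 21.2% to 25.8% of all lncRNA reads in SF/HA-HEP-PAM, 33.8% to 36.8% in SF/HA, 32.5% to 35.4% in Alkali-burned and 40.1% to 44.7% in Control. They were ENSRNOG00000064136 beside Col5a1, Micos10, Rpl30, ENSRNOG00000067873 beside Gpd1, ENSRNOG00000062648 beside Prrx2, ENSRNOG00000063932 beside Cdk6, ENSRNOG00000019682 beside the lamin gene Lmnb2, ENSRNOG00000064568, ENSRNOG00000016410 beside Rab24, and Hilpda. Per length the order differs: ENSRNOG00000019682, only 853 bases long, averaged 160.3 FPKM in SF/HA-HEP-PAM and 180.1 FPKM in Control, against 10.7 and 13.3 FPKM for Micos10 over 28310 bases. Of the 10, only the Col5a1, Prrx2 and Cdk6 neighbours were called in any comparison.

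Together, lncRNA rows took 1.05%, 0.826% and 0.946% of reads in the SF/HA-HEP-PAM libraries, 0.627%, 0.625% and 0.635% in SF/HA, 0.656%, 0.599% and 0.598% in Alkali-burned and 0.941%, 0.588% and 0.616% in Control. Every SF/HA-HEP-PAM library was above all SF/HA and Alkali-burned libraries, and Control replicate 1 lay within the SF/HA-HEP-PAM range. The exact two-sided permutation p over libraries was 0.1 for SF/HA-HEP-PAM against SF/HA and against Alkali-burned, the smallest that 3 against 3 allows, and 0.2 against Control (raw values of 6 comparisons, none below 0.05). In Control replicate 1, ENSRNOG00000064136 alone took 28.1% of lncRNA reads. Without that gene the shares were 1.04%, 0.814% and 0.937% in SF/HA-HEP-PAM and 0.677%, 0.536% and 0.547% in Control, which no longer overlapped (exact p = 0.1), and Control replicate 1 was still the highest Control library.

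Most of the lncRNA calls were genes higher in SF/HA-HEP-PAM corneas. In limma fitted over 8653 genes of every class, a gene was called at an adjusted p below 0.05 (Benjamini-Hochberg) and a log2 difference above 1 or below -1 on the log2(RPM + 2) scale. Against Alkali-burned, 60 of the 186 were higher and 7 lower, beside 13.3% and 4.76% of all genes tested. Against SF/HA, 48 were higher and 0 lower, beside 8.06% and 0.959%. By limma at an unadjusted p below 0.05, with no limit on the log2 difference, 71 were higher and 8 lower against SF/HA. Both directions together were 79 of the 186, beside 2402 of the 8653 genes tested. In that comparison 3 lower calls came from median-of-ratios scaling and 1 from voom. Against Control, 60 were higher and 4 lower, beside 14.4% and 3.05%. The median log2 difference over the 186 was 0.68, 0.49 and 0.48 in these 3 comparisons, against 0.17, 0.24 and 0.24 over all genes tested. All genes tested had passed the same read minimum, but the 41 genes with 10 reads in SF/HA-HEP-PAM libraries alone are among the 186, so these counts and medians are descriptions of the set.

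**Figure D1:**
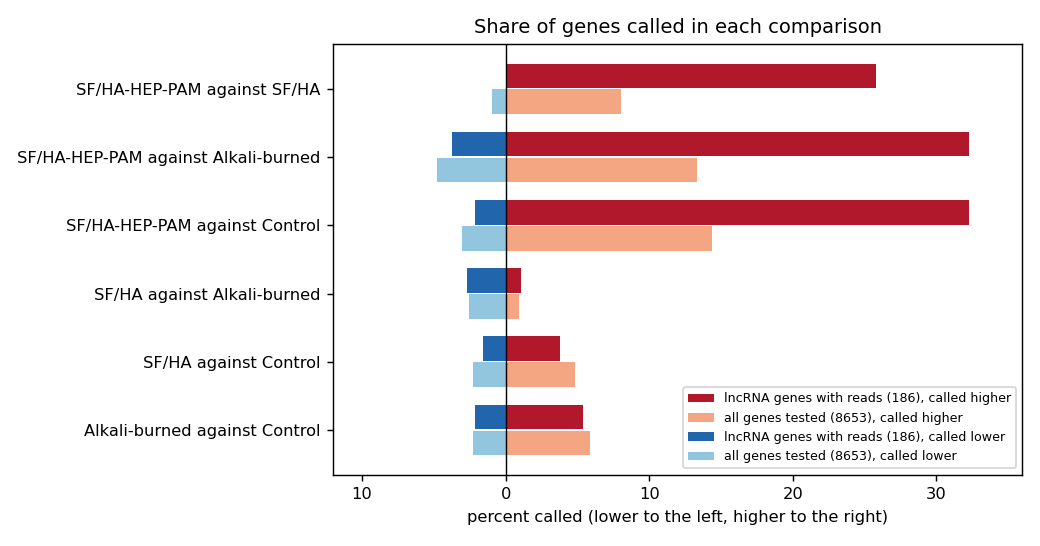
Percent of genes called in each comparison, lower to the left of 0 and higher to the right; dark bars are the 186 lncRNA genes with reads and light bars all 8653 genes tested. The dark bars exceed the light ones for higher calls in the 3 comparisons of SF/HA-HEP-PAM (60, 48 and 60 of 186). In the other 3 comparisons the longest dark bar is 5.38%.

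In all, 42 of the 186 (22.6%) were called higher in SF/HA-HEP-PAM against each of the other groups, beside 4.98% of all genes tested. The 3 comparisons share the SF/HA-HEP-PAM libraries. For 21 of the 42, every library with 10 reads was a SF/HA-HEP-PAM library, while 13 had 10 reads in at least 1 library of every group. In 41 of the 42 the 3 SF/HA-HEP-PAM libraries lay above all 9 others, as in 58 of the 186 and 13.5% of all genes tested. The count of 42 was 26 without SF/HA-HEP-PAM replicate 1 and 27 without replicate 3, and the 48 higher against SF/HA were 30 without replicate 3. The 42 had a median length of 2171 bases, against 3266 for the other 144, lay on 17 chromosomes, and none carried a symbol. They took 37.6%, 31.8% and 38.1% of lncRNA reads in SF/HA-HEP-PAM, 8.36%, 15.1% and 6.63% in SF/HA, 6.99%, 6.73% and 6.63% in Alkali-burned and 7.41%, 6.54% and 4.96% in Control. Since the 42 were chosen by these differences, their shares are part of that choice and not a separate result.

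The counts were also taken among better-read genes and at equal depth. Among genes with 10 reads in at least 1 library of both groups compared, the calls against Alkali-burned were 26 higher and 5 lower of 133 (19.5% and 3.76%), beside 11.3% and 4.62% of all genes that met the same condition. Against SF/HA they were 17 and 0 of 106 (16.0% and 0%), beside 6.71% and 1.15%. Against Control they were 21 and 3 of 106 (19.8% and 2.83%), beside 10.8% and 3.41%. Thinned to 486264 reads per library, 85 of the 186 still reached the read minimum, and 26 of the 42 were called in all 3 comparisons. The thinned run tested the genes chosen at full depth, so selection through the deeper SF/HA-HEP-PAM libraries remains in it. Calls over all genes were not counted after thinning. Scaling by the median of ratios placed the median of all genes at -0.01 in place of 0.17 against Alkali-burned, at 0.04 in place of 0.24 against SF/HA and at 0.03 in place of 0.24 against Control. The split of all calls then moved to 853 higher and 603 lower against Alkali-burned, where it had been 1148 and 412, to 428 and 208 against SF/HA, where it had been 697 and 83, and to 903 and 415 against Control, where it had been 1250 and 264. For the lncRNA genes that scaling gave 54 higher and 13 lower, 40 and 3, and 54 and 7.

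**Figure D2:**
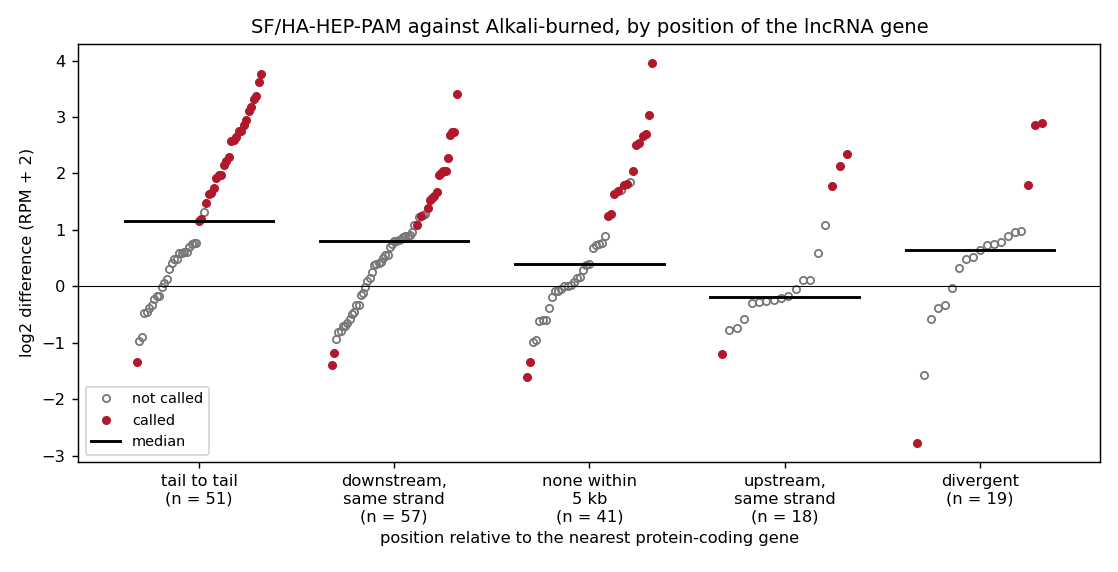
Log2 difference on the log2(RPM + 2) scale between SF/HA-HEP-PAM and Alkali-burned for each of the 186 lncRNA genes, sorted within position class; filled points were called and black lines are medians. Among the tail-to-tail genes 25 of 51 were called higher, beside 13.3% of all genes tested. Their median was 1.16, the highest of the 5 classes. The points include the 41 genes with 10 reads in SF/HA-HEP-PAM libraries alone, which had to be higher.

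The share called differed in number between position classes. Of the 51 that lay tail to tail with a protein-coding gene, 25 were higher in SF/HA-HEP-PAM than in Alkali-burned (49.0%), against 16 of 57 downstream of one (28.1%), 13 of 41 with none in reach (31.7%), 3 of 18 upstream (16.7%) and 3 of 19 divergent (15.8%). Of all genes tested, 13.3% were called higher in that comparison, and the upstream and divergent shares are near it. Of the 42 genes called against all 3 groups, 21 were tail to tail, 8 downstream, 7 with none in reach, 3 upstream and 3 divergent. These shares are counts, and the difference between classes was not tested. They include the 41 genes with 10 reads in SF/HA-HEP-PAM libraries alone, which had to be higher. How those genes spread over the classes was not counted.

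Among these genes, the one with most reads was ENSRNOG00000063932, 3035 bases at chr4:30642554-30645588 (mRatBN7.2), 872 bases from the end of Cdk6, a kinase that drives entry into the cell cycle. It had 620.1, 426 and 573 RPM in the SF/HA-HEP-PAM libraries, 38.9, 162 and 40.7 in SF/HA, 32.4, 46.6 and 34.5 in Alkali-burned and 18.5, 22.6 and 31.5 in Control. All SF/HA-HEP-PAM libraries lay above every other library, and SF/HA replicate 2 was the highest of the rest. The difference was log2 3.76 ± 0.40 (SE), adjusted p = 8.4e-06 against Alkali-burned, 3.02 against SF/HA and 4.38 against Control. Its neighbour Cdk6 averaged 12.4 ± 4.5 RPM in SF/HA-HEP-PAM, 9.2 ± 5.3 in SF/HA, 46.4 ± 16.6 in Alkali-burned and 11.4 ± 8.2 in Control (SD, n = 3). Cdk6 was thus raised in Alkali-burned alone. It was lower in SF/HA-HEP-PAM than in Alkali-burned by 1.74 on the log2 scale (adjusted p = 0.014). A smaller call of the lncRNA gene, SF/HA against Control (log2 difference 1.36 ± 0.40 (SE), adjusted p = 0.043), was lost without SF/HA replicate 2 (0.71, adjusted p = 0.13) and without most other single libraries (adjusted p = 0.052 to 0.11).

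In other tail-to-tail genes the SF/HA-HEP-PAM libraries were likewise the highest. ENSRNOG00000062875, 724 bases from Myo10, which encodes a motor of filopodia, had 394, 335 and 459 RPM in the SF/HA-HEP-PAM libraries, 46.4, 74.1 and 47 in SF/HA, 40.1, 29.2 and 40.3 in Alkali-burned and 53.5, 40.6 and 15.8 in Control. It rose by 3.37 ± 0.33 (SE; adjusted p = 4.5e-06) against Alkali-burned on the log2 scale, while Myo10 rose by 1.10 (adjusted p = 0.046). ENSRNOG00000068916, 102 bases from Ric1, which encodes part of an exchange factor for the Golgi GTPase Rab6, had 261, 171 and 250.5 RPM in the SF/HA-HEP-PAM libraries, 22.5, 54.1 and 21.9 in SF/HA, 24.7, 20.5 and 23.8 in Alkali-burned and 76.1, 19.2 and 14.8 in Control. Its SF/HA-HEP-PAM libraries all lay above the others, and Control replicate 1 was the highest Control by a wide margin. ENSRNOG00000068110, 1580 bases from the forkhead transcription factor gene Foxp1, had 172, 154 and 193 RPM in the SF/HA-HEP-PAM libraries, 13.5, 36.1 and 11.5 in SF/HA, 28.1, 27.7 and 17.3 in Alkali-burned and 35, 29.3 and 16.7 in Control. Here Foxp1 was also called higher, by 1.49 against 2.76 for the lncRNA gene.

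ENSRNOG00000068999, at chr9:61736763-61743926 and 13 bases from the end of Nbeal1, had 154, 100.1 and 165 RPM in the SF/HA-HEP-PAM libraries, 10.5, 28.1 and 4.18 in SF/HA, 11.9, 7.11 and 9.04 in Alkali-burned and 28.8, 4.51 and 8.86 in Control. The difference against Alkali-burned was 3.63 ± 0.53 (SE; adjusted p = 1.5e-04), with Nbeal1 at 1.23, and both were called. ENSRNOG00000065129, 3965 bases from Tnrc6b, which encodes a scaffold of microRNA-directed silencing, had 97.8, 52 and 49.8 RPM in the SF/HA-HEP-PAM libraries, 1.5, 6.01 and 1.04 in SF/HA, 3.41, 4.74 and 5.75 in Alkali-burned and 10.3, 1.13 and 4.92 in Control. It is one of the genes with 10 reads in SF/HA-HEP-PAM libraries alone, and its difference against SF/HA was 3.89, with Tnrc6b at 1.40. ENSRNOG00000068109, 465 bases from Pym1, had 28.6, 22.2 and 33.7 RPM in the SF/HA-HEP-PAM libraries, 5.99, 4.01 and 4.18 in SF/HA, 0.852, 2.37 and 8.22 in Alkali-burned and 0, 4.51 and 3.94 in Control, and its rise of 2.57 against Alkali-burned stood beside 1.96 for Pym1. No library of another group reached the lowest SF/HA-HEP-PAM library in any of these 3 genes.

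In the tail-to-tail genes ENSRNOG00000065580 and ENSRNOG00000065816, SF/HA replicate 2 lay well above the other SF/HA libraries. ENSRNOG00000065580, beside Tor1aip1, a gene of the inner nuclear membrane, had 284, 220.1 and 326 RPM in the SF/HA-HEP-PAM libraries, 59.9, 170.3 and 50.1 in SF/HA, 39.2, 32.4 and 30.4 in Alkali-burned and 103, 27.1 and 32.5 in Control. The call against SF/HA (log2 difference 1.74 ± 0.44 (SE), adjusted p = 0.017) was lost without SF/HA-HEP-PAM replicate 1 (1.71, adjusted p = 0.06) and without SF/HA-HEP-PAM replicate 3 or SF/HA replicate 1 or 3 (adjusted p = 0.066 to 0.097). ENSRNOG00000065816, beside Nucks1, had 189, 126 and 244 RPM in the SF/HA-HEP-PAM libraries, 46.4, 116 and 21.9 in SF/HA, 36.7, 16.6 and 25.5 in Alkali-burned and 63.8, 25.9 and 16.7 in Control, and its call against SF/HA (1.82) was lost without any of the same 4 libraries (adjusted p = 0.072 to 0.15). Nucks1 itself gave 0.25 against Alkali-burned (adjusted p = 0.47), against 2.75 for the lncRNA gene. ENSRNOG00000066466, with 10 reads in SF/HA-HEP-PAM libraries alone, was at 1.66 against Alkali-burned, its 1 call, and its neighbour Map3k2, a kinase gene of stress signalling, rose by 2.56.

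**Figure D3:**
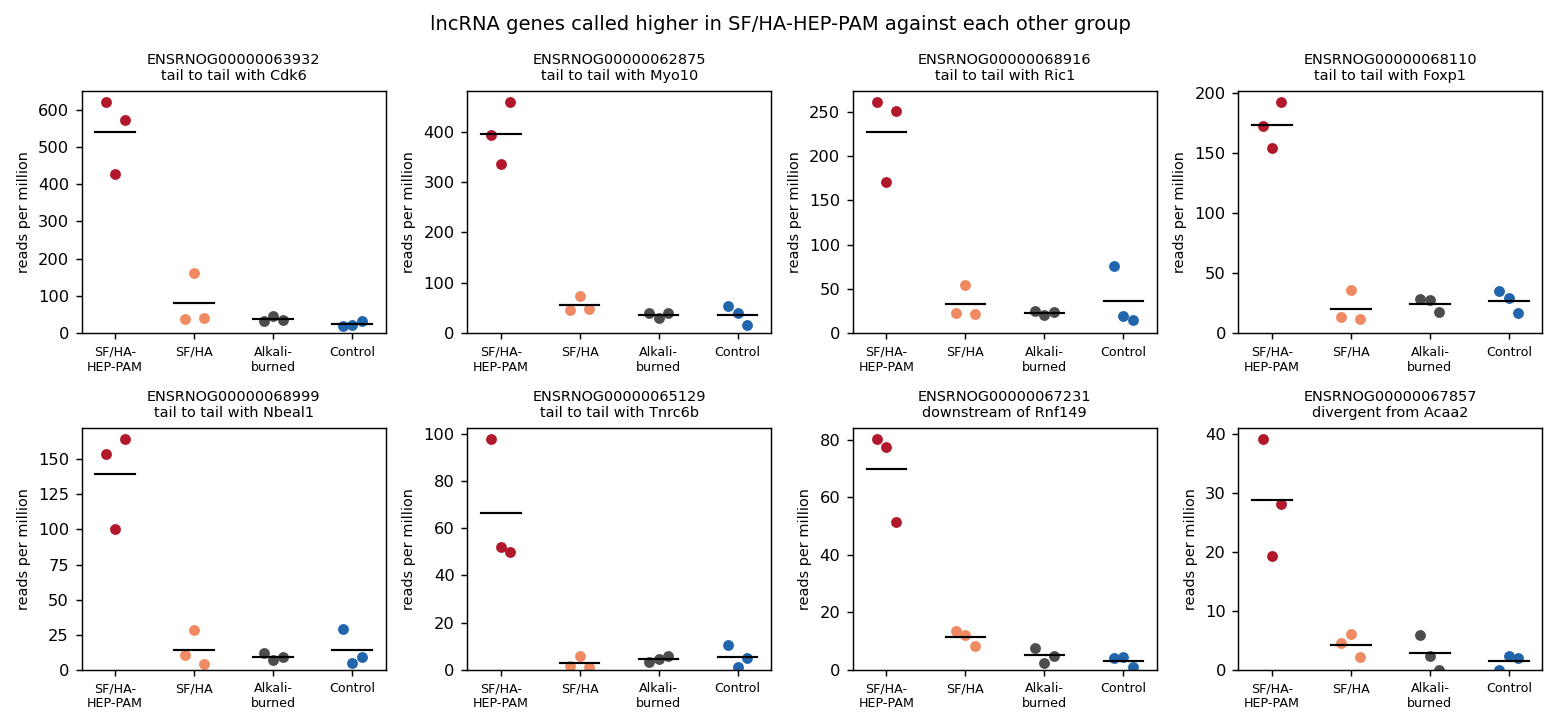
RPM in each library (points, 3 per group) and the group mean (line) for 8 lncRNA genes called higher in SF/HA-HEP-PAM against each other group, with the neighbouring protein-coding gene named; axes start at 0 and differ between panels. In each panel the SF/HA-HEP-PAM points lie above all 9 others. The genes were chosen by these calls, so the separation is part of that choice and not a separate result. Any of them that reached the read minimum in SF/HA-HEP-PAM libraries alone had to be higher there.

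The neighbouring protein-coding genes gave these counts. Of the 67 genes called between SF/HA-HEP-PAM and Alkali-burned, 43 had a neighbour that passed the read minimum; 14 of these neighbours were called in the same direction, 1 in the other (Cdk6) and 28 were not called. Of the 42 genes higher against all 3 groups, 29 had a tested neighbour, of which 10 were higher against Alkali-burned and 1 lower. Of all genes tested, 13.3% were called higher and 4.76% lower in that comparison. In these counts a gene with none within 5 kb has its nearest coding gene, at any distance, as the neighbour. Over the 105 pairs within 5 kb with both genes tested, the lncRNA gene had the larger log2 difference in 28 of 37 tail-to-tail pairs, 25 of 41 downstream pairs, 4 of 13 upstream pairs and 5 of 14 divergent pairs. A neighbour that was not called may still have changed. The pairs include genes with 10 reads in SF/HA-HEP-PAM libraries alone, which had to be higher there. How many of the 105 pairs they make up was not counted, so the pair counts are a description and not a test.

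**Figure D4:**
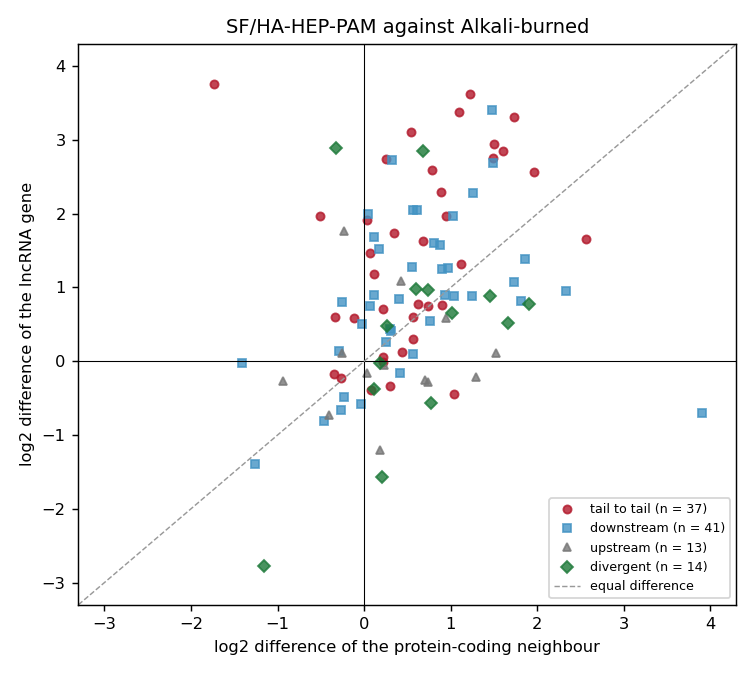
Log2 difference between SF/HA-HEP-PAM and Alkali-burned of 105 lncRNA genes (vertical axis) against that of the protein-coding neighbour within 5 kb (horizontal axis); symbols show the position class and the dashed line marks equal differences. The tail-to-tail points lie mostly above the line (28 of 37), and 5 of 14 divergent points do.

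Small RNA genes on the same strand lay inside 10 of the 186, 17 in all. Of the 10, 2 were called in SF/HA-HEP-PAM against Alkali-burned, 2 against SF/HA and 3 against Control, all of them higher, beside 13.3%, 8.06% and 14.4% of all genes tested, so no result about hosts is read from these counts. ENSRNOG00000067231, downstream of the ubiquitin ligase gene Rnf149 by 283 bases, holds Snord89, a snoRNA gene. It had 80.3, 77.5 and 51.4 RPM in the SF/HA-HEP-PAM libraries, 13.5, 12 and 8.35 in SF/HA, 7.67, 2.37 and 4.93 in Alkali-burned and 4.11, 4.51 and 0.984 in Control, and its difference against Alkali-burned was 3.41, with Rnf149 at 1.48. ENSRNOG00000067857, which holds 2 small Cajal body RNA genes and starts 145 bases from the mitochondrial thiolase gene Acaa2, had 39.1, 19.4 and 28.1 RPM in the SF/HA-HEP-PAM libraries, 4.49, 6.01 and 2.09 in SF/HA, 5.97, 2.37 and 0 in Alkali-burned and 0, 2.26 and 1.97 in Control. Against Alkali-burned its difference was 2.86, and Acaa2 gave 0.68 (adjusted p = 0.12). Both of these hosts had 10 reads in SF/HA-HEP-PAM libraries alone.

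Another pair of hosts was instead low in Control. ENSRNOG00000067254, upstream of Secisbp2, a gene of selenoprotein synthesis, and holding 1 snoRNA gene, had 58, 48.2 and 50.6 RPM in the SF/HA-HEP-PAM libraries, 31.4, 32.1 and 54.3 in SF/HA, 52.8, 42.7 and 49.3 in Alkali-burned and 10.3, 15.8 and 23.6 in Control. It was called higher than Control in all 3 other groups, with log2 difference 1.50 ± 0.28 (SE), adjusted p = 0.0028 in Alkali-burned. The SF/HA call (1.17) was lost without Control replicate 1 (0.91, adjusted p = 0.033) and without SF/HA replicate 3 (0.93, adjusted p = 0.083). ENSRNOG00000071131, tail to tail with Trnau1ap and holding 4 small RNA genes, had 32.8, 26.4 and 20.1 RPM in the SF/HA-HEP-PAM libraries, 27, 44.1 and 27.1 in SF/HA, 35.8, 42.7 and 27.1 in Alkali-burned and 10.3, 20.3 and 15.8 in Control. Its Alkali-burned call (log2 difference 1.11 ± 0.30 (SE), adjusted p = 0.025) was lost when Control replicate 1, Control replicate 3, Alkali-burned replicate 1 or Alkali-burned replicate 2 was left out (0.88 to 1.15, adjusted p = 0.054 to 0.11). The host of Mir1949, ENSRNOG00000070938, and the host near Epb41l4a, ENSRNOG00000066854, were not called in any comparison.

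Some genes higher in SF/HA-HEP-PAM had no protein-coding gene within 5 kb. ENSRNOG00000068238, a span of 83587 bases whose nearest coding gene, Klf14, lies 167136 bases away, had 58.7, 22.7 and 41.7 RPM in the SF/HA-HEP-PAM libraries, 10.5, 2.0 and 3.13 in SF/HA, 0, 2.37 and 0 in Alkali-burned and 10.3, 1.13 and 0.984 in Control. It had 84, 48 and 52 reads in the SF/HA-HEP-PAM libraries and 10 in no other library, and its difference against Alkali-burned was 3.96 with a pseudocount of 2 RPM and 2.93 with 5 RPM. ENSRNOG00000070850 had 147, 61.9 and 60.2 RPM in the SF/HA-HEP-PAM libraries, 8.98, 16 and 7.31 in SF/HA, 5.97, 8.69 and 10.7 in Alkali-burned and 4.11, 4.51 and 1.97 in Control, with log2 difference 3.96 ± 0.38 (SE), adjusted p = 5.4e-06 against Control. ENSRNOG00000066588, which lies nearest to Ifnar2, a subunit of the receptor for type I interferons, had 40.5, 28.8 and 40.1 RPM in the SF/HA-HEP-PAM libraries, 13.5, 14 and 12.5 in SF/HA, 6.82, 2.37 and 3.29 in Alkali-burned and 8.23, 6.77 and 8.86 in Control. It was called higher in SF/HA-HEP-PAM against each group and in SF/HA against Alkali-burned (log2 difference 1.38 ± 0.32 (SE), adjusted p = 0.019), but that last call was lost without Alkali-burned replicate 2 or 3 or SF/HA replicate 1 or 2 (adjusted p = 0.053 to 0.11), and the one against SF/HA without SF/HA replicate 3 or SF/HA-HEP-PAM replicate 1 or 3 (adjusted p = 0.054 to 0.073). Ifnar2 was called only against Control, in both patch groups, at 1.82 in SF/HA-HEP-PAM and 1.25 in SF/HA.

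Divergent genes were taken as those that start within 5 kb of the start of a coding gene and run away from it. Of them, 14 start within 1000 bases. Of 19 divergent genes, 3 were higher in SF/HA-HEP-PAM than in Alkali-burned and 1 lower, beside 13.3% and 4.76% of all genes tested. No result about the class is read from these counts. ENSRNOG00000069108 starts 77 bases from Bicral, which encodes a subunit of a BAF chromatin remodelling complex. It had 13.3, 8.5 and 13.6 RPM in the SF/HA-HEP-PAM libraries, 1.5, 4.01 and 1.04 in SF/HA, 1.7, 1.58 and 2.46 in Alkali-burned and 0, 0 and 0 in Control, and 0 reads allow up to 2.95 RPM in the deepest Control library for counting error only. Its difference was 1.80 against Alkali-burned and 1.76 against SF/HA, the second call lost without SF/HA replicate 3 or SF/HA-HEP-PAM replicate 1 or 3. ENSRNOG00000070561 starts 92 bases from Ggnbp2 and had 17.5, 11.3 and 8.83 RPM in the SF/HA-HEP-PAM libraries, 2.99, 4.01 and 4.18 in SF/HA, 4.26, 5.53 and 5.75 in Alkali-burned and 2.06, 1.13 and 6.89 in Control. It was called against Control (log2 difference 1.55) and SF/HA, not against Alkali-burned, and Ggnbp2 was not called. The call against SF/HA was lost without any single library other than a Control one, and that against Control was lost without Control replicate 2 or SF/HA-HEP-PAM replicate 1. ENSRNOG00000064998 starts 319 bases from Pi4kb, a lipid kinase gene, and had 30.7, 8.5 and 28.9 RPM in the SF/HA-HEP-PAM libraries, 4.49, 0 and 1.04 in SF/HA, 2.56, 0 and 0.822 in Alkali-burned and 0, 1.13 and 0.984 in Control. Pi4kb gave -0.32 against Alkali-burned (adjusted p = 0.52), against 2.90 for the lncRNA gene. All 3 of these divergent genes had 10 reads in SF/HA-HEP-PAM libraries alone.

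Coding partners whose start lies within 250 bases of a called divergent gene were Acaa2, Ggnbp2, Bicral and Snapc3. The promoters of Ggnbp2, Bicral and Snapc3 are shown from RefSeq (build GRCr8, not the build of the files), each 250 bases before to 50 after the start of the coding gene and in its direction. Capitals mark the GC box, GGGCGG or its reverse CCGCCC. Positions in GRCr8 are chr10:70240234-70240533, minus strand, for Ggnbp2, chr9:21651578-21651877, plus strand, for Bicral and chr5:102863617-102863916, plus strand, for Snapc3.
Ggnbp2: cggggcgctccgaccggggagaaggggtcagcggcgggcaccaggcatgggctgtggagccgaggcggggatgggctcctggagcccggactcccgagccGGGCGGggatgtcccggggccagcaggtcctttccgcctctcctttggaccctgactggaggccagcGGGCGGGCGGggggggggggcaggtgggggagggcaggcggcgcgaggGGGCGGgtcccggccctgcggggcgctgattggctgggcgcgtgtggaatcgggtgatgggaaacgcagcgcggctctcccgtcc
Bicral: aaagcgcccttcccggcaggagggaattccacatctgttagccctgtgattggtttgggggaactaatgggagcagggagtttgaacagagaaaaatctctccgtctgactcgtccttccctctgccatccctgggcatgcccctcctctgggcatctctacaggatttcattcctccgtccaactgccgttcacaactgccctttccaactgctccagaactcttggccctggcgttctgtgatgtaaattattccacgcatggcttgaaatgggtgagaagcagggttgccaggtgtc
Snapc3: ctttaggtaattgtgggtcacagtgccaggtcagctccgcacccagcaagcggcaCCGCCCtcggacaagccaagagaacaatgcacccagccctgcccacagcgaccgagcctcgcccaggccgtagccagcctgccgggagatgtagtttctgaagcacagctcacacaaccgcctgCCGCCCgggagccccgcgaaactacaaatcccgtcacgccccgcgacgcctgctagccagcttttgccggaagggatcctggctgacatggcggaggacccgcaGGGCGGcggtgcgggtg

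The Ggnbp2 window holds 4 GC boxes, that of Snapc3 3 and that of Bicral 0, with 31, 25 and 8 CG dinucleotides. Of 33469 promoters of this length in the table, 33.1% hold a GC box, and the median has 7 CG. Of the 13 divergent partners found there, 8 hold a GC box and the median has 25 CG. Of the neighbours of tail-to-tail genes 27 of 38 hold one, with a median of 23.5 CG, and of those of downstream genes 33 of 44, with 31.5 CG. A match in letters is a description of the window, not a binding site. Starts of the lncRNA genes were not placed in these windows.

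ENSRNOG00000063510, whose start lies 115 bases from Snapc3, a gene for a subunit of the complex that activates small nuclear RNA genes, had 11.9, 4.25 and 4.82 RPM in the SF/HA-HEP-PAM libraries, 7.49, 10.02 and 6.27 in SF/HA, 88.6, 13.4 and 9.04 in Alkali-burned and 4.11, 3.38 and 4.92 in Control. Alkali-burned replicate 1 was far above the other 2. Its burn call against Control (log2 difference 2.03 ± 0.58 (SE), adjusted p = 0.034) was lost without that library (1.10, adjusted p = 0.16) and without Control replicate 2 or 3 (adjusted p = 0.095 and 0.068), and Snapc3 was not called. ENSRNOG00000062759, 476 bases from Pax6, the master transcription factor gene of the eye, had 20.3, 19.4 and 19.3 RPM in the SF/HA-HEP-PAM libraries, 13.5, 10.02 and 24 in SF/HA, 11.1, 16.6 and 12.3 in Alkali-burned and 10.3, 25.9 and 35.4 in Control and was not called in any comparison. Pax6 fell by 1.33 in Alkali-burned against Control and rose by 1.66 in SF/HA-HEP-PAM against Alkali-burned. ENSRNOG00000069893, 96 bases from the AP-1 gene Jun, was likewise not called, at 0.97 against Alkali-burned with Jun at 0.74.

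The 7 genes lower in SF/HA-HEP-PAM than in Alkali-burned were 3.76% of the 186, beside 4.76% of all genes tested. ENSRNOG00000064936, divergent from Slco2a1, which encodes a prostaglandin transporter, had 0.698, 2.36 and 1.61 RPM in the SF/HA-HEP-PAM libraries, 2.99, 2.0 and 1.04 in SF/HA, 16.2, 27.7 and 23 in Alkali-burned and 12.3, 7.9 and 7.88 in Control. Every library of both patch groups lay below every Alkali-burned and Control library. The gene had 10 reads in Alkali-burned libraries alone, and its log2 difference was -2.77 in SF/HA-HEP-PAM and -2.60 in SF/HA, both against the shared Alkali-burned libraries. Slco2a1 fell by 1.86 in SF/HA and gave -1.16 in SF/HA-HEP-PAM (adjusted p = 0.084), at 4.14 ± 1.29 RPM in SF/HA-HEP-PAM, 2.17 ± 2.25 in SF/HA, 12.5 ± 5.69 in Alkali-burned and 6.53 ± 2.97 in Control (SD, n = 3).

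ENSRNOG00000070050, whose nearest coding gene is Mucl3 and which has none within 5 kb, had 14.7, 19.4 and 17.7 RPM in the SF/HA-HEP-PAM libraries, 16.5, 10.02 and 12.5 in SF/HA, 30.7, 59.3 and 55 in Alkali-burned and 18.5, 24.8 and 19.7 in Control. It was called higher in Alkali-burned than in Control (1.09) and lower in SF/HA-HEP-PAM (-1.34) and SF/HA (-1.72) than in Alkali-burned; the burn call was lost without Alkali-burned replicate 2 (0.92, adjusted p = 0.12), Alkali-burned replicate 3 (0.97, adjusted p = 0.11) or Control replicate 3 (1.05, adjusted p = 0.068). ENSRNOG00000065967, tail to tail with the receptor gene Gpr35, had 3.49, 4.25 and 4.82 RPM in the SF/HA-HEP-PAM libraries, 2.99, 2.0 and 5.22 in SF/HA, 16.2, 15.8 and 9.86 in Alkali-burned and 4.11, 1.13 and 5.91 in Control. The Alkali-burned libraries lay above all others in both genes, and for ENSRNOG00000065967 the difference was 1.56 in Alkali-burned against Control, -1.35 in SF/HA-HEP-PAM and -1.58 in SF/HA against Alkali-burned. This gene too had 10 reads in Alkali-burned libraries alone, and each of these 3 calls was lost without Alkali-burned replicate 1 or 2, among other libraries.

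The other 4 that were lower in SF/HA-HEP-PAM than in Alkali-burned were Nupr1l1 (-1.60), ENSRNOG00000064142 downstream of Col8a1 (-1.39, lost without any of 4 libraries, adjusted p = 0.058 to 0.19), ENSRNOG00000048237 upstream of Rhoa, a gene of the actin cytoskeleton (-1.20), and ENSRNOG00000064648, 51 bases downstream of Cd34 (-1.18). The last had 7.68, 4.72 and 6.42 RPM in the SF/HA-HEP-PAM libraries, 8.98, 10.02 and 13.6 in SF/HA, 13.6, 15 and 22.2 in Alkali-burned and 55.5, 15.8 and 14.8 in Control, was also lower than Control (-1.66), and its call against Alkali-burned was lost when any 1 library of either group was left out (adjusted p = 0.068 to 0.16). The other 3 lower than Control were ENSRNOG00000064136, ENSRNOG00000064936 (-1.68) and ENSRNOG00000063359, whose nearest coding gene is Usp9x (-1.41). Usp9x itself gave 1.11 against Control. It had 121.5, 52 and 84.3 RPM in SF/HA-HEP-PAM and 53.5, 31.6 and 28.5 in Control, so the groups overlapped.

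Between Alkali-burned and Control corneas, the comparison that asks what the injury changed, 10 of the 186 were higher and 4 lower (5.38% and 2.15%), close to the 5.84% and 2.3% of all genes tested. The count of 14 calls depended on single libraries and moved both ways. It was 5 when Alkali-burned replicate 1 was left out, 8 for replicate 2 or 3 of that group and 9 for Control replicate 3. Leaving out another library raised it above 14, and the full range is given in the last section. The median log2 difference was -0.08, against 0.02 over all genes. Among the 97 with 10 reads in both groups, 5 were higher and 2 lower, beside 4.17% and 2.44% of all such genes.

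ENSRNOG00000064136, 2308 bases at chr3:11354747-11357054, starts 159 bases past the end of Col5a1, which encodes a collagen that sets fibril width in the corneal stroma. It had 153, 117 and 93.9 RPM in the SF/HA-HEP-PAM libraries, 178, 174 and 148 in SF/HA, 189, 178 and 199 in Alkali-burned and 2641, 527 and 687 in Control. Control libraries lay above all others, and Control replicate 1 far above the other 2. The difference was -2.37 ± 0.40 (SE; adjusted p = 0.0012) in Alkali-burned, -2.55 ± 0.40 (SE; adjusted p = 5.9e-04) in SF/HA and -3.03 ± 0.40 (SE; adjusted p = 7.3e-05) in SF/HA-HEP-PAM, all against the shared Control libraries. Without Control replicate 1 it was -1.66, adjusted p = 6.1e-05, -1.84, adjusted p = 2.0e-05 and -2.32, adjusted p = 2.7e-06, in that order. Col5a1 fell by 1.68, 2.04 and 1.95 in those comparisons, at 30.2 ± 3.47 RPM in SF/HA-HEP-PAM, 28.9 ± 7.95 in SF/HA, 36.8 ± 5.16 in Alkali-burned and 155 ± 138 in Control (SD, n = 3). Summed stromal markers, Col5a1 among them, also reached their highest value, 85838 RPM, in a Control library, and their part in this result was not tested.

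**Figure D5:**
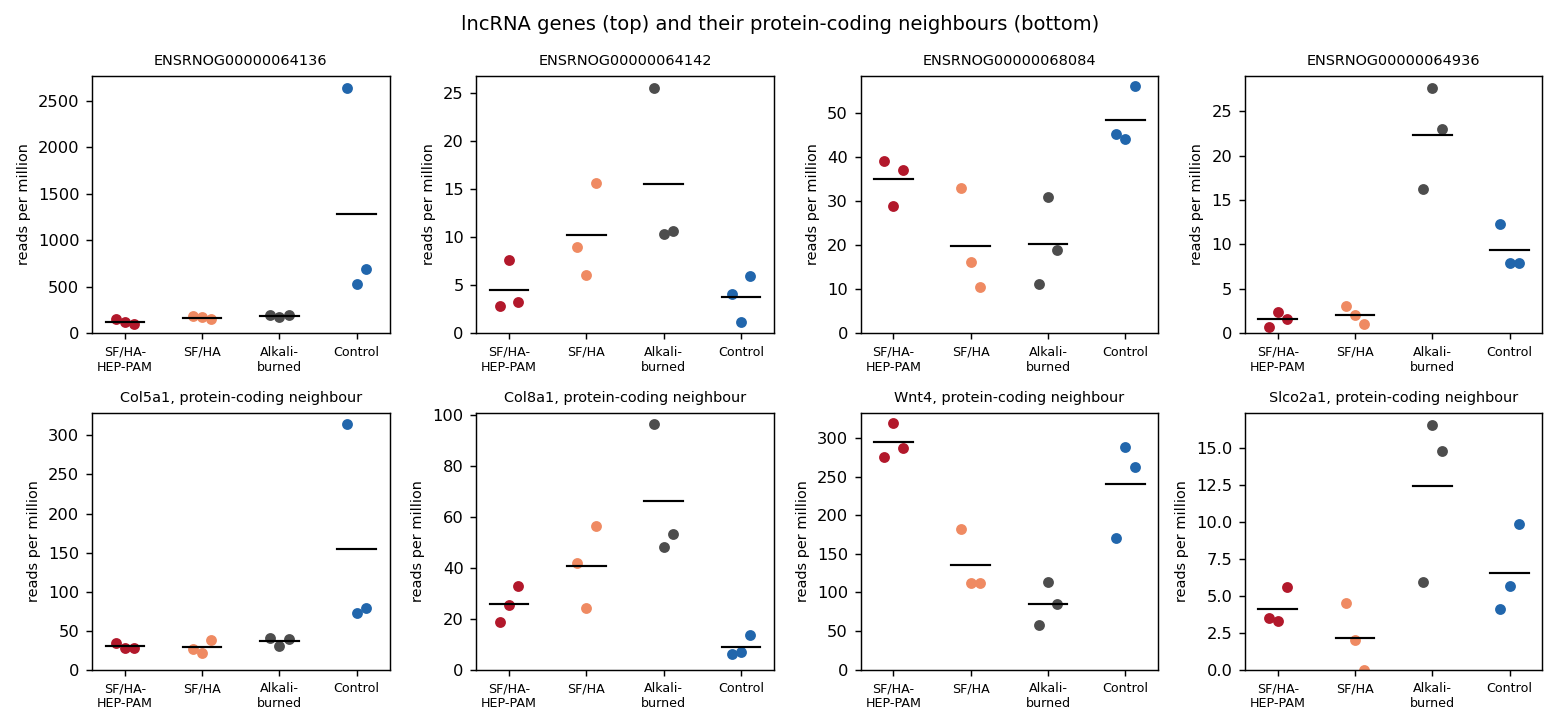
RPM in each library (points) and the group mean (line) for 4 lncRNA genes in the upper row and the protein-coding neighbour of each in the lower row; axes start at 0 and differ between panels. The gene beside Col5a1 and Col5a1 itself are both highest in Control replicate 1, and the gene beside Slco2a1 is lower in all 6 patch libraries than in any Alkali-burned or Control library.

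ENSRNOG00000062648, 19936 bases at chr3:14169402-14189337 and tail to tail with Prrx2, a homeobox gene of mesenchyme, went the opposite way. It had 207, 208 and 190.3 RPM in the SF/HA-HEP-PAM libraries, 202, 357 and 386 in SF/HA, 318, 179 and 207 in Alkali-burned and 76.1, 53 and 48.2 in Control. Every Control library lay below all 9 others, and the 3 other groups overlapped. The rise over Control was 1.94 ± 0.26 (SE; adjusted p = 1.8e-04) in Alkali-burned, 2.35 ± 0.26 (SE; adjusted p = 2.6e-05) in SF/HA and 1.76 ± 0.26 (SE; adjusted p = 2.0e-04) in SF/HA-HEP-PAM, and Prrx2 was not called in any of the 3 (log2 -0.11, 0.50 and -0.46). All 3 calls held under every alternative run, each left-out library included.

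Near other matrix and signalling genes the calls rested on single libraries. ENSRNOG00000064142, 1942 bases downstream of Col8a1, a collagen of the endothelial basement membrane, had 2.79, 7.56 and 3.21 RPM in the SF/HA-HEP-PAM libraries, 8.98, 6.01 and 15.7 in SF/HA, 25.6, 10.3 and 10.7 in Alkali-burned and 4.11, 1.13 and 5.91 in Control. Its burn call (log2 difference 1.61 ± 0.46 (SE), adjusted p = 0.035) was lost when Control replicate 2 or any Alkali-burned library was left out (1.22 to 1.81), while Col8a1 rose by 2.64. ENSRNOG00000068084, 792 bases downstream of the signalling ligand gene Wnt4, had 39.1, 28.8 and 36.9 RPM in the SF/HA-HEP-PAM libraries, 32.9, 16 and 10.4 in SF/HA, 11.1, 30.8 and 18.9 in Alkali-burned and 45.2, 44 and 56.1 in Control. It was called lower in Alkali-burned (log2 difference -1.27 ± 0.36 (SE), adjusted p = 0.034) and in SF/HA (-1.34) than in Control, with Wnt4 at -1.49 and -0.82; the burn call was lost without Alkali-burned replicate 1 (-0.94, adjusted p = 0.17) and without Control replicate 2, Control replicate 3 or Alkali-burned replicate 3 (adjusted p = 0.068 to 0.11). The other 2 lower after the burn were ENSRNOG00000067785, -1.54, lost without Alkali-burned replicate 1 (adjusted p = 0.052), which was 1.64 in SF/HA-HEP-PAM against Alkali-burned, and ENSRNOG00000067842 downstream of Arhgef12, -1.47, a call lost without any Alkali-burned library (adjusted p = 0.054 to 0.18). The 10 higher also held ENSRNOG00000066659, 1.42, whose nearest coding gene is the AP-1 gene Fosb, and ENSRNOG00000062503, 1.07, 25 bases downstream of Gpc6, a heparan sulphate proteoglycan gene, both lost without Alkali-burned replicate 1 or 3 (adjusted p = 0.07 to 0.10), among others.

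Against Alkali-burned corneas, SF/HA ones had 2 of the 186 higher and 5 lower (1.08% and 2.69%), close to the 0.901% and 2.58% of all genes tested. The count was 2 without Alkali-burned replicate 2 or replicate 3, 4 without SF/HA replicate 1 or replicate 2, and 11 without Control replicate 1. Among the genes with 10 reads in both groups, 1 was higher and 3 lower, beside 0.931% and 2.72% of all such genes. The 2 higher genes were ENSRNOG00000066588 and ENSRNOG00000066423, which lies 4734 bases downstream of Hsd17b2, a steroid dehydrogenase gene, and had 44, 30.7 and 32.1 RPM in the SF/HA-HEP-PAM libraries, 22.5, 12 and 50.1 in SF/HA, 8.52, 3.95 and 0.822 in Alkali-burned and 2.06, 9.03 and 8.86 in Control. Its call (log2 difference 2.22 ± 0.53 (SE), adjusted p = 0.023) was lost without SF/HA replicate 1 (2.27, adjusted p = 0.061) and without SF/HA replicate 3, Alkali-burned replicate 2 or Alkali-burned replicate 3 (adjusted p = 0.083 to 0.15). The 5 lower genes were ENSRNOG00000064936, ENSRNOG00000070050, ENSRNOG00000065967, ENSRNOG00000066023 just upstream of the chromatin remodeller gene Chd2 (-1.05) and ENSRNOG00000065796 (-1.04), the last lost without any library of either group but Alkali-burned replicate 1. ENSRNOG00000066023 had 95, 69 and 61.8 RPM in the SF/HA-HEP-PAM libraries, 41.9, 32.1 and 50.1 in SF/HA, 73.3, 91.7 and 95.3 in Alkali-burned and 57.6, 55.3 and 56.1 in Control, and the SF/HA libraries lay below all 3 Alkali-burned ones, but the call was lost without SF/HA replicate 2 or Alkali-burned replicate 2 or 3 (adjusted p = 0.065 to 0.086).

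Against Control, 7 of the 186 were higher in SF/HA and 3 lower, beside 4.8% and 2.25% of all genes tested. The count was 16 without Control replicate 1 and 6 without Control replicate 3. Among the 91 with 10 reads in both groups, 3 were higher and 2 lower, beside 3.35% and 2.26% of all such genes. Of the 7, ENSRNOG00000062648, ENSRNOG00000067254, ENSRNOG00000063932, ENSRNOG00000067231 and Rab32 were also higher in SF/HA-HEP-PAM than in Control, and so was ENSRNOG00000069101, 426 bases downstream of Rab4a, which had 14, 15.6 and 12 RPM in the SF/HA-HEP-PAM libraries, 10.5, 6.01 and 7.31 in SF/HA, 2.56, 0 and 4.11 in Alkali-burned and 0, 1.13 and 0 in Control. All 6 patch libraries lay above all 6 others in it, and the difference was 2.07 ± 0.44 (SE; adjusted p = 0.0065) in SF/HA against Control. In SF/HA-HEP-PAM, which alone had libraries with 10 reads of it, the difference was 2.77. The last of the 7, ENSRNOG00000069152, downstream of Zfp655, had 177, 83.6 and 73.1 RPM in the SF/HA-HEP-PAM libraries, 28.4, 16 and 12.5 in SF/HA, 17.9, 11.1 and 13.1 in Alkali-burned and 6.17, 5.64 and 6.89 in Control; its SF/HA call (1.28) was lost without SF/HA replicate 1 (0.98, adjusted p = 0.12). The 3 lower genes were ENSRNOG00000064136, ENSRNOG00000064936 (-1.51) and ENSRNOG00000068084. Single libraries also ended the calls of ENSRNOG00000067231 (adjusted p = 0.081 to 0.12), ENSRNOG00000064936 (0.066) and ENSRNOG00000068084 (0.066 to 0.14) in this comparison.

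Of the 19 genes with a symbol, 4 were called in any comparison: Rab32, Tcim, Samd8 and Nupr1l1. Rab32, which encodes a GTPase that sorts cargo to lysosome-related organelles, had 18.9, 22.2 and 26.5 RPM in the SF/HA-HEP-PAM libraries, 21, 50.1 and 21.9 in SF/HA, 24.7, 14.2 and 26.3 in Alkali-burned and 6.17, 5.64 and 5.91 in Control. Control was below all 9 other libraries, with a rise of 1.55 ± 0.34 (SE; adjusted p = 0.0068) in Alkali-burned, 1.95 ± 0.34 (SE; adjusted p = 0.0013) in SF/HA and 1.62 ± 0.34 (SE; adjusted p = 0.0024) in SF/HA-HEP-PAM. The calls in Alkali-burned and SF/HA-HEP-PAM were lost on the log2(FPKM + 1) scale (0.77 and 0.81), on which the span of 15899 bases makes the values small. Tcim had 88.7, 66.6 and 56.2 RPM in the SF/HA-HEP-PAM libraries, 43.4, 54.1 and 63.7 in SF/HA, 22.2, 27.7 and 36.1 in Alkali-burned and 32.9, 19.2 and 31.5 in Control, and rose by 1.24 ± 0.27 (SE; adjusted p = 0.0032) in SF/HA-HEP-PAM against Alkali-burned and 1.29 ± 0.27 (SE; adjusted p = 0.0025) against Control.

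The lncRNA row named Samd8 lies 6 bases from another row of that name, which is protein coding. It had 16.1, 14.2 and 12 RPM in the SF/HA-HEP-PAM libraries, 7.49, 12 and 4.18 in SF/HA, 1.7, 4.74 and 5.75 in Alkali-burned and 8.23, 4.51 and 4.92 in Control with 10 reads in SF/HA-HEP-PAM libraries alone, and its difference against Alkali-burned was 1.47, while the coding row gave 0.06 (adjusted p = 0.92). Leaving out Alkali-burned replicate 1 gave 1.15, and leaving out SF/HA-HEP-PAM replicate 1 gave 1.38. The call of this row ended in both runs, which describes the selected values and is not a test. Nupr1l1 had 22.3, 25 and 14.5 RPM in the SF/HA-HEP-PAM libraries, 55.4, 26 and 76.2 in SF/HA, 147, 37.9 and 48.5 in Alkali-burned and 76.1, 25.9 and 32.5 in Control. Alkali-burned replicate 1 was well above the other 2, and the fall in SF/HA-HEP-PAM (log2 difference -1.60 ± 0.48 (SE), adjusted p = 0.023) was lost without it (-1.02, adjusted p = 0.13) and without SF/HA-HEP-PAM replicate 3 (-1.38, adjusted p = 0.091).

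The abundant rows with names of coding genes were not called in any comparison. Micos10 had 277, 327 and 307 RPM in the SF/HA-HEP-PAM libraries, 399.8, 273 and 384 in SF/HA, 434, 341 and 326 in Alkali-burned and 308, 377 and 442 in Control. Rpl30 had 262, 309.8 and 303 RPM in the SF/HA-HEP-PAM libraries, 431, 315 and 380.1 in SF/HA, 384, 346 and 368 in Alkali-burned and 288, 363 and 395 in Control. The groups overlapped in Micos10, and in Rpl30 every SF/HA-HEP-PAM library lay below every Alkali-burned and SF/HA library, with log2 differences of -0.33 (adjusted p = 0.2) and -0.35 (adjusted p = 0.21). Hilpda had 127, 117 and 107 RPM in the SF/HA-HEP-PAM libraries, 144, 174 and 195 in SF/HA, 193, 85.4 and 93.7 in Alkali-burned and 263, 111 and 102 in Control, with Control replicate 1 the highest of the 12. The other 12 with a symbol, among them Ubl3, Mrpl52, Tmem230, Lemd2, Lsm6, Gpx3, Ufsp1, Snapc5 and Lnc134, also had no call, with log2 differences between SF/HA-HEP-PAM and Alkali-burned from -0.60 for AABR07048992.1 to 0.50 for AABR07039328.2.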

How the data were processed

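The authors sequenced RNA from 12 rat cornea libraries and deposited 1 table of FPKM values, with gene class, position and length. The tools were STAR, featureCounts, DESeq2, fastp and bcl2fastq with genome build mRatBN7.2, per the submitters' processing notes. The series' design text names another counter, HTSeq-count, and neither versions nor the use of strand or molecular identifiers is given in the sources used here. Deposited FPKM times the length in kb gave RPM, and divided by its smallest positive value in a column it gave whole reads, the largest deviation from a whole number being 0.051 reads.

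The length column spans introns, so FPKM is low for genes with long introns; levels were compared within a gene as RPM and between genes as FPKM. The 108 lines that name no gene were left out. Genes with at least 10 reads in at least 3 libraries were tested on log2(RPM + 2) with limma 3.58.1 (lmFit, eBayes with a variance trend, R 4.3.3), all 12 libraries in 1 model of 4 group means, with Benjamini-Hochberg adjustment over all genes tested and calls at an adjusted p below 0.05 and a log2 difference above 1 or below -1. Fold changes on this scale understate the change of low genes. Every adjusted p in the text comes from these limma fits. Shares of reads were compared with exact permutation tests over libraries (scipy 1.17.1). Tables were handled with Python 3.11.15 and pandas 2.3.3.

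The genes and lists were chosen with earlier results of these data known. Named were the 10 genes with the highest mean RPM and, in each comparison, the called genes with the largest differences, those whose libraries do not overlap first and at most 2 without a symbol per direction; the other genes, mainly beside well-known coding genes or among 5 or fewer called, were chosen after their values were seen. Promoter sequences are from RefSeq on GRCr8; no sequence of the lncRNA genes was used here. Alternatives were another pseudocount, the FPKM scale, median-of-ratios scaling, voom on recovered reads, no filter, the replicate number as a block, only the libraries compared, each library left out, 4 libraries left out together and, added after the data were seen, thinning to the smallest library and the share without the gene beside Col5a1. At 486264 to 2117399 reads per library, 1 read is 0.472 to 2.06 RPM, and that counting step limits the precision of low genes.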

Additional observations from a re-analysis of the deposited data

How the results depend on the processing

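In the main setting 14 genes were called in Alkali-burned against Control, 7 in SF/HA against Alkali-burned, 67 in SF/HA-HEP-PAM against Alkali-burned, 48 against SF/HA and 64 against Control, and 10 in SF/HA against Control. On the log2(FPKM + 1) scale Alkali-burned against Control gave 7 and SF/HA against Alkali-burned 3. With no filter Alkali-burned against Control gave 8 and SF/HA against Control 5. Thinning gave 8 in Alkali-burned against Control. In SF/HA against Control, voom gave 6, the libraries compared alone 4, and leaving out 4 libraries together 16. Counted among genes with 10 reads in a library of both groups, the calls were 7 in Alkali-burned against Control, 4 in SF/HA against Alkali-burned, 31, 17 and 24 in SF/HA-HEP-PAM against Alkali-burned, SF/HA and Control, and 5 in SF/HA against Control; fewer genes enter there. The cause of the other shifts was not tested. With each library left out in turn, the counts ran from 5 to 20, 2 to 11, 54 to 73, 30 to 52, 55 to 71 and 6 to 16 in the order of the first sentence. Other alternatives kept these counts within 1.5 times. The difference in the share of lncRNA reads, in percentage points, changed sign without the gene beside Col5a1 in Alkali-burned against Control (0.012, where it had been -0.0976) and in SF/HA against Control (0.0256, where it had been -0.0862), and likewise without Control replicate 1 (0.0154 and 0.0268). With each library left out these 2 ran from -0.161 to 0.0154 and from -0.149 to 0.0268, and the other 4 comparisons kept their sign.

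Same-numbered replicates did not deviate together (r from -0.19 to 0.204 over 18 pairs, 4 above 0.1), so the numbers were not taken as pairs; with the replicate number as a block, 14, 7, 69, 47, 64 and 12 genes were called. Of 110 called values of named genes, 69 were called in every alternative and 77 whichever library was left out, and no value reversed.

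Depth limits these results: 43 of the 186 genes have 10 reads in all 12 libraries, each group has 3 libraries, and the deepest group is also the one with most calls. Whether counting used the strand is not given, and reads from the ends of neighbouring genes were not separated from tail-to-tail and downstream rows.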
